A study of Homo sapiens with 18 samples.

Results

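The BCL2 family decides at the mitochondrion whether a cell survives or dies, and 10 of its genes were followed here through RNA sequencing of human multiple myeloma cells. They were taken by gene symbol: the anti-apoptotic MCL1, BCL2 and BCL2L1, the effectors BAX and BAK1, and the BH3-only genes BCL2L11, BBC3, PMAIP1, BID and BIK. All 10 symbols occur in each table, among 16532 genes for H929, 58884 named rows in each of the 2 MM1S expression tables and 20308 rows for RNA immunoprecipitation (RIP). The study asked what RBM39, a splicing factor that binds RNA, does in myeloma. H929 and MM1S are established myeloma lines, labelled as plasma cells.

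In H929, 3 libraries labelled scr (read as scramble, a control hairpin) stood against 3 labelled shRBM39, a hairpin against RBM39. For MM1S the knockdown had 2 scramble and 2 shRBM39 libraries. A second MM1S experiment set 3 libraries of cells given DMSO, the solvent, against 3 given indisulam, which sends the RBM39 protein to degradation through the DCAF15 ubiquitin ligase. The labels give neither dose nor time, nor a hairpin sequence, and do not say whether numbers 1 and 2 in the MM1S knockdown are hairpins or repeats. RIP from MM1S had 1 library for RBM39 and 1 for IgG, the control antibody. No label says that replicates came from separate cultures, so the p-values cover the spread of these libraries only, and that spread may be technical.

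BCL2 proteins share BH domains and meet on the outer mitochondrial membrane. MCL1, BCL2 and BCL-XL (the long product of BCL2L1) hold BAX and BAK1 and the BH3-only proteins in check; when BH3-only proteins prevail, BAX and BAK1 open the membrane, cytochrome c escapes and caspases are switched on. Plasma cells and many myelomas lean on MCL1 for survival. MCL1, BCL2L1 and BCL2L11 are also known for alternative splicing into products of different or opposite activity, but the values here are per gene, so a shift between isoforms cannot be seen.

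RBM39 itself was the check of the labels. In H929 its mean was 4.5 FPKM (fragments per kilobase of transcript, scaled to depth) in the libraries labelled scramble and 37.5 FPKM in those labelled shRBM39, which goes against the labels; every H929 direction here is therefore that of the libraries as labelled. In the MM1S knockdown RBM39 fell from 190.4 to 58.5 TPM (transcript share scaled to a fixed total), with an adjusted p of 0.0121 in limma, and with indisulam, which acts on the protein, it was at 187.6 and 197.8 TPM (adjusted p = 0.828). Indisulam replicate 3 stood apart: its root mean square log2 distance to the other indisulam libraries was 0.68 to 0.717, against 0.307 to 0.322 for the other pairs within a group of that table, so values without it stand beside the members' results with indisulam. All 9 plasma cell markers were above 1 in every group, and their sum moved with each contrast (5011 to 5130 against 7922 to 8059 FPKM in H929, 4578 to 6831 against 7478 to 8646 TPM in the MM1S knockdown, 7527 to 7885 against 5944 to 7183 TPM with indisulam). Of 5 T cell markers only CD3E reached 1, and CD3D and CD3G were at 0 in all MM1S groups. The summed T cell markers moved with the contrasts (39.4 to 47.1 against 15.9 to 18.8 FPKM in H929, 5.61 to 5.86 against 1.32 to 1.7 TPM in the MM1S knockdown, 3.31 to 4.79 against 0.97 to 1.66 TPM with indisulam), as did the myeloid sum, mainly CD68; their part in the results was not tested. Depth relative to scramble replicate 1 ran from 0.975 to 1.15 in H929 and is unknown elsewhere.

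BCL2L11, BBC3 and BAX were each called lower in H929 as labelled and higher in a MM1S comparison. By RBM39 level rather than label, BBC3, BAX and, uncalled, BCL2 were lower where RBM39 was higher both in H929 and in the MM1S knockdown. MCL1 and BAK1 did not behave so. Their groups were lower with the shRBM39 label in both, MCL1 by -0.19 and -0.43 and BAK1 by -0.23 and -0.18, uncalled in the knockdown. As labelled, 33.6% of 9509 genes tested in both were apart in opposite directions, as 3 members (BBC3, BAX and BCL2) were. An inverse relation to RBM39 was thus common among all genes and does not mark out these members. The share of genes apart in the same direction in both, as MCL1 and BAK1 were, was not counted. The 250 bases before the start site of BCL2L11, BBC3 and BAX (RefSeq, GRCh38.p14) show how unlike their promoters are. They are read 5′ to 3′ on the strand of the gene, at chr2:111120664-111120913 (plus), chr19:47232668-47232917 (minus) and chr19:48954625-48954874 (plus). Capitals mark matches, on either strand, to a FOXO motif (GTAAACA), an E-box (CACGTG), a GC box (GGGCGG) or an AP-1 motif (TGANTCA).
BCL2L11: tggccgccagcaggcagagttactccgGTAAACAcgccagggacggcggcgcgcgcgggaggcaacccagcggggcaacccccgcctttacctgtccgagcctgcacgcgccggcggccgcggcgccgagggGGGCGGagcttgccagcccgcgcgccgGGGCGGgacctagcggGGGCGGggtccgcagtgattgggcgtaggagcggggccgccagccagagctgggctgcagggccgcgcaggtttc
BBC3: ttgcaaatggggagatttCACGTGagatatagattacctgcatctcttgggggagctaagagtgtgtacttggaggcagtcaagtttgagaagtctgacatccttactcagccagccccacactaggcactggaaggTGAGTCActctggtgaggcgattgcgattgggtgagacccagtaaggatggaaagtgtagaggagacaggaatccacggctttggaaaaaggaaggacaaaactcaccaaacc
BAX: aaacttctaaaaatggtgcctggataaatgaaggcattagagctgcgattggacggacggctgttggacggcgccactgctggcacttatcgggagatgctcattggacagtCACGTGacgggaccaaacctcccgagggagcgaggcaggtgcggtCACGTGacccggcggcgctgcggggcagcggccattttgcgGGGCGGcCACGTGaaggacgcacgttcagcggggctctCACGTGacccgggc

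The BCL2L11 window held 1 FOXO match and 3 GC boxes at 76.8% G and C. FOXO matches occurred in 2.98% of 34788 RefSeq promoters of the same length, and GC boxes in 42.6%. The BBC3 window, at 49.2% G and C, held 1 E-box and 1 AP-1 match, found in 6.31% and 6.59% of all promoters. BAX had 4 E-boxes and 1 GC box at 62.8%, where the median promoter had 58.0%. A cyclic AMP response element (TGACGTCA) and the stress-response motif TGATGNAA were searched too, were in 1.64% and 3.16% of promoters, and had no match in a member. Promoters were matched for 8 of 10 members, not for MCL1 and BIK; the windows of BCL2 and BCL2L1 held none of the 6 motifs. A match is a description of the letters, not evidence of binding.

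The members differed in level far more among themselves than between conditions. FPKM and TPM are both scaled to gene length, so levels can be ordered within a table. In H929, MCL1 was the highest member in both groups (means of 399.6 and 350.4 FPKM), then BAX, BAK1 and BCL2L1 in that order, with no overlap between neighbours. BCL2 was the lowest H929 member, at 1.79 and 1.56 FPKM, although in the libraries labelled shRBM39 its range overlapped that of BIK, and BIK overlapped PMAIP1. Among the libraries labelled scramble, only BBC3 and BID were neighbours with overlapping ranges.

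MM1S had a different order. MCL1 led in the knockdown experiment (252.5 TPM with scramble, 186.9 with shRBM39), followed by BCL2L1. With DMSO the order was BCL2L1 (149.4 TPM), BAX (108.1) and MCL1 (97.2), without overlap, and with indisulam BCL2L1, MCL1 and BAX overlapped in turn. BCL2 stood at 21.6 TPM with scramble and 14.6 TPM with DMSO, and BIK was lowest in all 4 MM1S groups, between 0.837 and 1.46 TPM. Neighbours that overlapped in both knockdown groups were BAX with BCL2L11 and BID with BAK1; BID also overlapped BAK1 with DMSO. Controls of the same line differed between the 2 MM1S experiments, MCL1 by 252.5 against 97.2 TPM and BCL2L11 by 76.4 against 25.7 TPM; these tables were normalized separately, and the difference was not tested. The BAK1 pseudogene BAK1P1, which could share reads with BAK1, was at most 1.73 TPM.

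**Figure D1:**
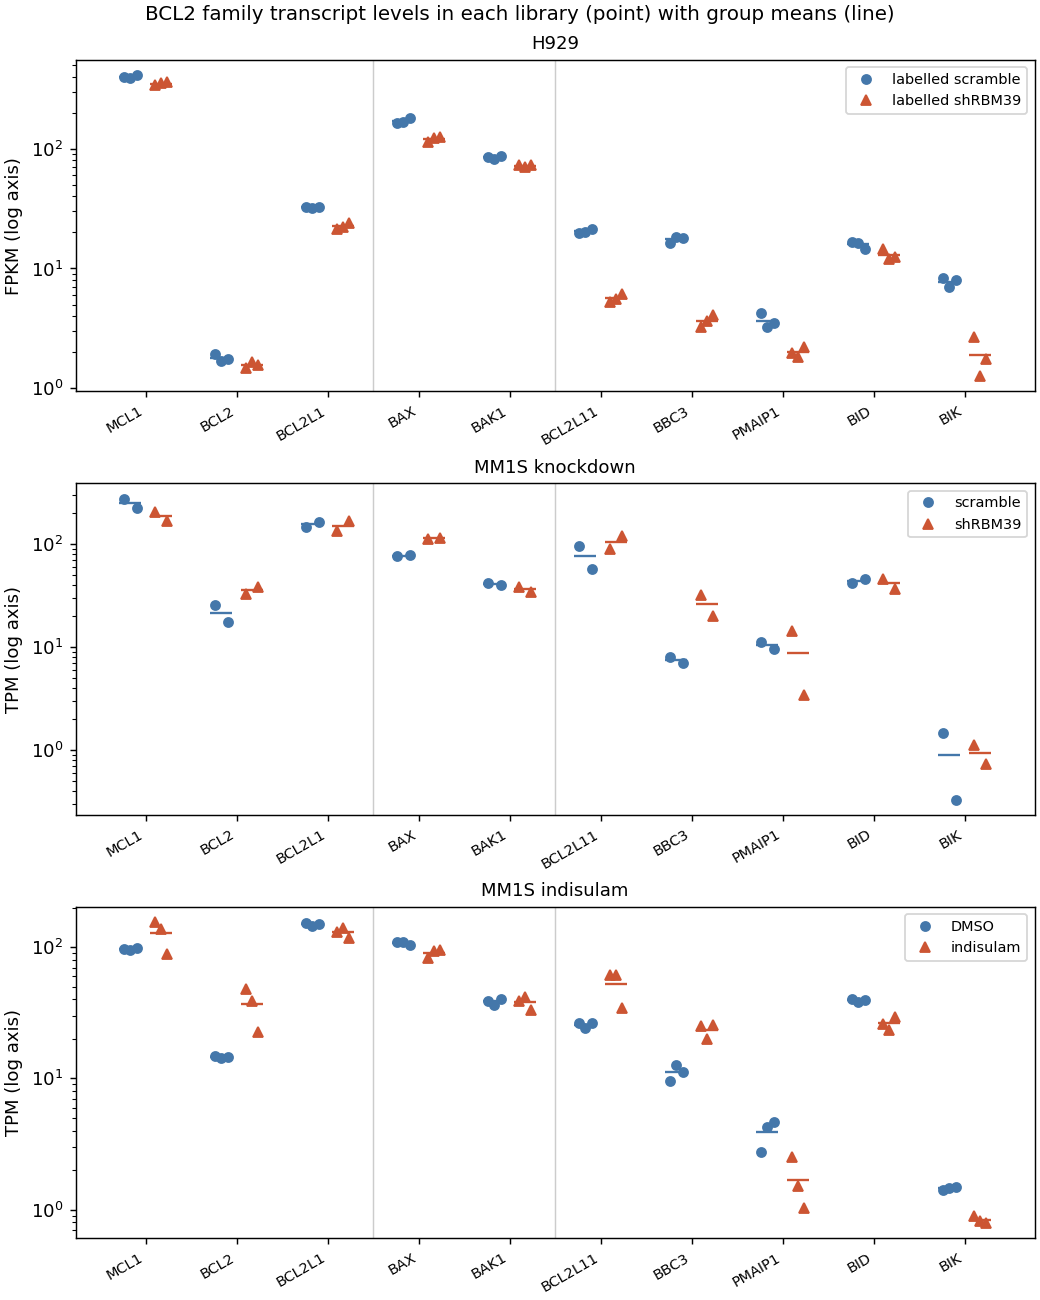
Level of each member in every library (points; log axis, FPKM for H929 and TPM for MM1S) with group means as lines, ordered from anti-apoptotic genes through effectors to BH3-only genes. MCL1 is highest in H929 and BCL2 lowest, at 1.79 FPKM with the scramble label. The groups of BBC3, BCL2 and BAX are apart in all 3 panels.

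In H929, 9 of 10 members were called lower in the libraries labelled shRBM39, the BH3-only genes BBC3, BCL2L11, BIK and PMAIP1 by the most. All 5 BH3-only genes fell, as did both effectors and 2 of 3 anti-apoptotic genes; BCL2 did not pass the test. A member is called where limma's Benjamini-Hochberg adjusted p over all genes is below 0.05. Of 10360 genes tested, 48.1% were called lower and 24.1% higher, so most genes moved in this comparison and a call alone says little. The median difference was -0.51 on the log2(FPKM + 1) scale for the members and -0.13 for all genes. By class it was -0.19 for the anti-apoptotic genes, -0.37 for the effectors and -1.63 for the BH3-only genes. These are bulk libraries, so fewer cells with a transcript and less RNA per cell cannot be told apart.

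Among the BH3-only genes, BBC3, which p53 induces, encodes PUMA, an inhibitor of all the survival proteins. It was at 16.4, 18.5 and 17.8 FPKM in the libraries labelled scramble and at 3.26, 3.61 and 4.06 FPKM in those labelled shRBM39. The 2 groups were far apart, by -2.0 on the log2 scale (SE 0.0732, limma adjusted p = 1.48e-10). BCL2L11 encodes BIM, which is needed for the death of many lymphoid cells. Its levels were 19.7, 20.1 and 21.5 against 5.29, 5.54 and 6.17 FPKM. Every library labelled shRBM39 was below every one labelled scramble, and BCL2L11 differed by -1.69 (SE 0.0648, limma adjusted p = 2.04e-10).

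BIK, an endoplasmic reticulum BH3-only protein, was at 8.25, 7.04 and 8.06 against 2.65, 1.26 and 1.76 FPKM. Its difference of -1.63 (SE 0.144, adjusted p = 2.03e-06) was of similar size to that of BCL2L11. PMAIP1 encodes NOXA, which binds MCL1 and favours its destruction. It was low throughout, at 4.23, 3.23 and 3.49 against 1.96, 1.83 and 2.23 FPKM, and differed by -0.63 (SE 0.0872, adjusted p = 2.49e-05). BID, the protein that death receptor caspases cleave to reach mitochondria, changed least in its class. It was at 16.8, 16.4 and 14.7 against 14.5, 12.1 and 12.5 FPKM, with a difference of -0.28 (SE 0.0721, adjusted p = 0.00377) and only a narrow gap between the groups.

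No survival gene or effector fell by as much as BBC3, BCL2L11, BIK or PMAIP1. BCL2L1 was at 32.8, 31.7 and 32.7 against 21.3, 22 and 24.1 FPKM, apart by -0.51 on the log2 scale (SE 0.053, adjusted p = 1.64e-06). BAX, with 165.3, 168.9 and 182.4 against 115.1, 123 and 124.8 FPKM, also differed by -0.51 (SE 0.0475, adjusted p = 6.24e-07). Both had groups that did not overlap. MCL1 was at 396.8, 389.3 and 412.8 against 338.6, 352.5 and 360.1 FPKM, a difference of -0.19 (SE 0.041, adjusted p = 9.98e-04). BAK1 was at 84.7, 82.7 and 86.6 against 73.1, 70 and 72.6 FPKM, a difference of -0.23 (SE 0.0406, adjusted p = 1.81e-04). These were the smallest called differences, followed by that of BID. BCL2 was at 1.93, 1.68 and 1.75 against 1.47, 1.65 and 1.57 FPKM, close to the filter, and its difference of -0.12 (SE 0.071) did not pass (adjusted p = 0.141).

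The groups of all 10 members did not overlap, all lower with the shRBM39 label, where 49.6% of genes tested behaved so and 25.1% were apart in the other direction. Relative to the median of all genes the differences were -1.87 for BBC3, -1.55 for BCL2L11, -1.49 for BIK, -0.37 for BCL2L1 and BAX, -0.10 for BAK1 and -0.05 for MCL1. When libraries were scaled to a common median, 6 members were called lower. This scaling moved the median of all genes to 0.03. Of 10360 genes tested, 7244 were then called, and the upward share of all calls rose from 33.4% to 54.3%. MCL1 (-0.03, adjusted p = 0.617), BAK1 (-0.07, adjusted p = 0.173) and BID (-0.11, adjusted p = 0.192) then did not pass, and BCL2 turned to 0.04.

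In the MM1S knockdown, where RBM39 fell, BBC3 and BAX rose and no member was called lower. Called higher were 2 of 10 members, against 3.97% of 14152 genes tested; 6.35% were called lower. At an unadjusted p below 0.05, limma gave 3 members higher and 1 lower. The median difference was 0.02 on the log2(TPM + 1) scale, and -0.00 over all genes. Groups did not overlap for 5 members, BCL2, BAX and BBC3 higher and MCL1 and BAK1 lower, where with 2 libraries a group 30.5% of all genes were apart upward and 31.9% downward.

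BBC3 was at 7.97 and 6.96 TPM with scramble and at 32.1 and 20.1 TPM with shRBM39. Both knockdown libraries were above both controls, by 1.65 on the log2 scale (SE 0.25, adjusted p = 0.0245). BAX, the effector that moves from the cytosol to the membrane, was at 76.5 and 78.0 against 113 and 116.2 TPM. Replicates were close and the difference was 0.56 (SE 0.115, adjusted p = 0.0444). BAK1, the effector that resides in the membrane, was at 41.8 and 40.6 against 38.4 and 34.4 TPM, with a difference of -0.18 (SE 0.13, adjusted p = 0.400). Neither call held when any 1 of the 4 libraries was left out: the adjusted p was 0.0541 to 0.256 for BBC3 and 0.0793 to 0.317 for BAX, while the differences were 1.32 to 1.97 and 0.54 to 0.58. In these fits the lone library of a group is assumed to vary as the other group does. Over all genes none was called without scramble replicate 1 or 2 or shRBM39 replicate 2 (2296, 2424 and 4605 genes at an unadjusted limma p below 0.05), and 465 were called without shRBM39 replicate 1.

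No survival gene passed. BCL2 was at 25.7 and 17.5 TPM against 33.2 and 38.5 TPM, a difference of 0.73 (SE 0.2145, adjusted p = 0.0883). MCL1 was at 278.4 and 226.7 against 205.9 and 167.8 TPM, a difference of -0.43 (SE 0.168, adjusted p = 0.150). For both the groups were apart but the libraries within a group were spread. BCL2L1 overlapped, at 147.8 and 164.5 against 134.1 and 167.5 TPM (-0.06, SE 0.155, adjusted p = 0.835).

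The other BH3-only genes overlapped between the groups. BCL2L11 was at 95.6 and 57.2 against 90.8 and 121.4 TPM (0.50, SE 0.282, adjusted p = 0.282), and BID at 41.6 and 45.9 against 46.2 and 37.2 TPM (-0.08, SE 0.158, adjusted p = 0.782). PMAIP1 was at 11.2 and 9.6 against 14.2 and 3.47 TPM (-0.46, SE 0.569, adjusted p = 0.619); the 2 knockdown libraries lay on either side of the controls. BIK was at 1.46 and 0.33 against 1.13 and 0.74 TPM (0.09, SE 0.376, adjusted p = 0.895), at the level of the filter.

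With indisulam the BH3-only genes split: BCL2L11 and BBC3 rose while PMAIP1 and BID fell. BCL2 rose as well, and neither effector passed the test. Thus 3 of 10 members were called higher, against 8.47% of 13445 genes tested, and 2 lower, against 21.5%. The median difference was -0.12 for the members and -0.05 for all genes. Groups did not overlap for 8 members, 3 higher and 5 lower, where 14.9% and 32.3% of all genes did so. MCL1 and BAK1 overlapped.

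BCL2 was at 14.9, 14.3 and 14.7 TPM with DMSO and at 48.3, 39 and 22.7 TPM with indisulam. The controls lay close together, and the treated libraries were all higher but spread, with replicate 3 lowest. The log2 difference was 1.21 (SE 0.26, adjusted p = 0.0134), and without replicate 3 it was 1.51 (adjusted p = 3.72e-05). BCL2L11 had the same layout, at 26.6, 24.1 and 26.5 against 61.2, 61.3 and 34.2 TPM, and differed by 0.95 (SE 0.2285, adjusted p = 0.0203). Without replicate 3 its difference was 1.22 (adjusted p = 2.41e-05). BBC3 was at 9.63, 12.6 and 11.2 against 25.2, 19.8 and 25.4 TPM, a difference of 1.01 (SE 0.167, adjusted p = 0.00458). Here replicate 3 lay with the other treated libraries, and without it the difference was 0.95 (adjusted p = 9.61e-04). BBC3 was called under all 13 alternatives of this comparison.

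The calls of BCL2 and BCL2L11 did not hold without some of the other libraries. Leaving out DMSO replicate 1, 2 or 3 or indisulam replicate 2 gave BCL2 an adjusted p of 0.0558, 0.0587, 0.059 and 0.0545. BCL2L11 had 0.0714, 0.0849 and 0.0743 without DMSO replicate 1, 2 or 3, and 0.0639 and 0.0733 without indisulam replicate 1 or 2. Their differences stayed between 0.98 and 1.51 for BCL2 and between 0.81 and 1.22 for BCL2L11.

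PMAIP1 and BID moved the other way. PMAIP1 was at 2.75, 4.24 and 4.64 TPM with DMSO and at 2.51, 1.51 and 1.03 TPM with indisulam, a low level with a narrow gap between groups. It fell by 0.88 on the log2 scale (SE 0.263, adjusted p = 0.0433). BID was at 40.2, 38.5 and 39.3 against 25.9, 23.5 and 29.4 TPM, well apart, with a difference of -0.57 (SE 0.121, adjusted p = 0.0121). Without indisulam replicate 3 both passed (-0.69, adjusted p = 0.0298, and -0.65, adjusted p = 2.42e-04). The call of BID was lost without DMSO replicate 1, 2 or 3 (adjusted p of 0.0692, 0.0637 and 0.0695), and that of PMAIP1 without these (0.0615, 0.149 and 0.161) or indisulam replicate 2 (0.12). BIK was at 1.41, 1.47 and 1.5 against 0.9, 0.82 and 0.79 TPM, without overlap, but its difference of -0.42 (SE 0.139) did not pass (adjusted p = 0.0568).

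MCL1 depended on indisulam replicate 3. It was at 97.4, 95.5 and 98.6 TPM with DMSO and at 155.8, 138.5 and 88.7 TPM with indisulam, so replicates 1 and 2 were above every control and replicate 3 below. The difference was 0.35 (SE 0.198, adjusted p = 0.219) with all libraries and 0.59 (SE 0.0645, adjusted p = 2.47e-04) without replicate 3. Quantile normalization (0.63, adjusted p = 0.0196) and median scaling (0.36, adjusted p = 0.0363) also brought it past the threshold, and under these the adjusted p of BID was 0.104 and 0.0784. Of the calls over all genes, the upward share was 28.3% as deposited, 52.1% under quantile normalization and 46.7% under median scaling.

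BCL2L1 was at 153.2, 145.7 and 149.4 against 131, 139.8 and 117.5 TPM, apart but not called (-0.21, SE 0.0905, adjusted p = 0.123). BAX was at 110.1, 109.7 and 104.5 against 82.1, 94.3 and 95.1 TPM (-0.26, SE 0.0926, adjusted p = 0.0757). BAK1 overlapped at 39.1, 36.4 and 40.2 against 39.2, 42 and 33 TPM (-0.02, SE 0.124, adjusted p = 0.898). None of these passed with all libraries. Without indisulam replicate 3, BCL2L1 was at -0.14 (adjusted p = 0.0558) and BAK1 at 0.07 (adjusted p = 0.406). BAX (-0.29, adjusted p = 0.00978) and BIK (-0.40, adjusted p = 0.031) were then called lower. That fit gave 4 members higher and 4 lower, where 37.9% of 14238 genes tested were called higher and 27.8% lower. The genes called in all then numbered 9350 in place of 4024.

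**Figure D2:**
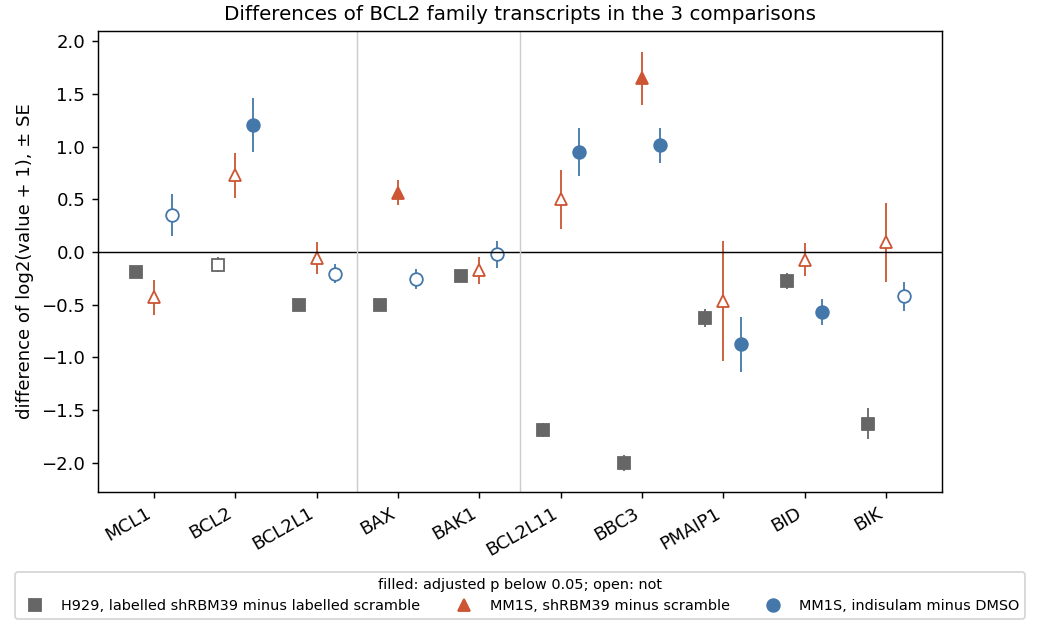
Difference of log2(value + 1) between each perturbed group and its own control, for each member, with bars of 1 standard error and filled symbols at an adjusted p below 0.05. BBC3 is at -2.0 in H929 as labelled and at 1.65 and 1.01 in the MM1S comparisons. PMAIP1 and BID lie below 0 in all 3 but are filled in only 2.

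The balance between classes can be read as the share of each in the summed level of the 10 members, a description with no test. In H929 the survival genes made up 57.2% to 57.8% of the sum with the scramble label and 62.6% to 63.4% with the shRBM39 label, and the BH3-only genes 8.39% to 8.83% and 4.09% to 4.78%. Almost all of the survival sum was MCL1 (92.0% to 93.7%), and BCL2 was 0.39% to 0.45% of it. In the MM1S knockdown the survival share was 62.1% and 63.1% with scramble and 52.6% and 52.9% with shRBM39, and the BH3-only share 21.7% and 18.5% against 26.0% and 25.9%. The effector share there was 16.3% and 18.3% against 21.4% and 21.3%. In each case the 2 groups were apart.

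With indisulam the BH3-only share was 19.1% to 20.3%, against 16.3% to 16.9% with DMSO, while the effector share was 21.2% to 28.6% against 29.5% to 30.3%. The survival share overlapped, at 51.1% to 58.6% against 53.0% to 53.6%, with replicate 3 the lowest of all. Replicates 1 and 2 alone were at 58.6% and 56.6% for the survival genes, 21.2% and 24.3% for the effectors and 20.2% and 19.1% for the BH3-only genes. The make-up of the survival sum differed: BCL2 was 5.58% to 5.61% of it with DMSO and 9.90% to 14.4% with indisulam, and in the knockdown 5.68% and 4.28% with scramble and 8.90% and 10.3% with shRBM39. BCL2L11 was 0.252 to 0.273 times MCL1 with DMSO and 0.385 to 0.443 times with indisulam. In the knockdown this ratio was 0.343 and 0.253 with scramble and 0.441 and 0.723 with shRBM39, and in H929 it was 0.0497 to 0.0522 and 0.0156 to 0.0171. The ratio of BAX to BAK1 was 1.83 and 1.92 with scramble and 2.94 and 3.38 with shRBM39 in MM1S. It was 1.95 to 2.11 in H929 with the scramble label and 1.57 to 1.76 with the shRBM39 label, and overlapped between DMSO and indisulam.

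**Figure D3:**
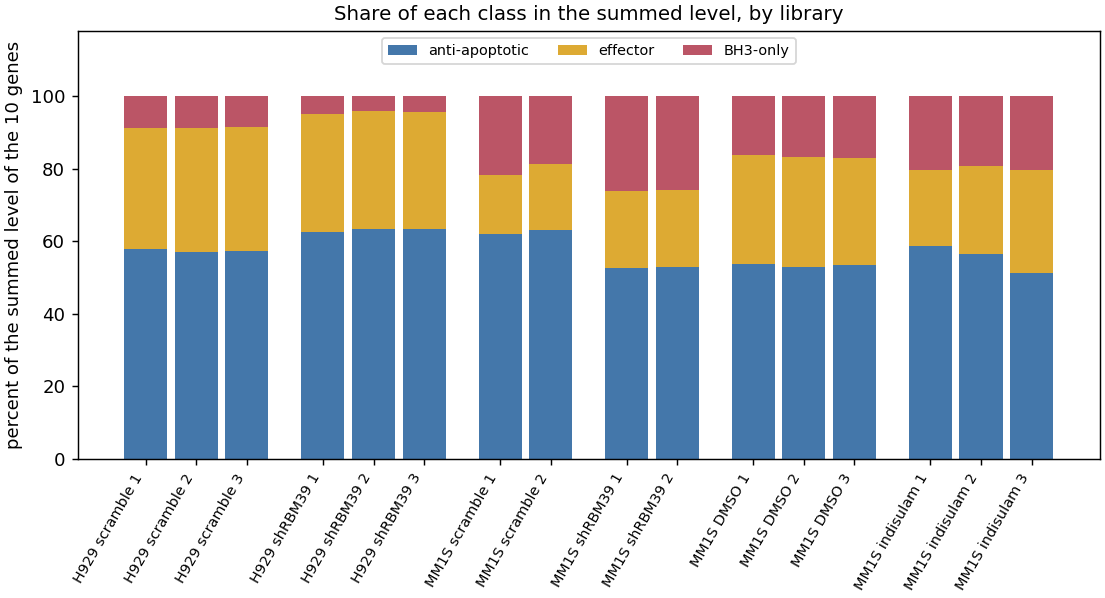
Share of each class in the summed level of the 10 members, in percent, 1 bar per library, labels as deposited. BH3-only genes fill 4.09% to 4.78% in H929 libraries labelled shRBM39, the smallest share of any group, and 25.9% to 26.0% in MM1S shRBM39, the largest.

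RIP asked which RNAs came down with RBM39. With 1 library per arm there is no test and no replicate check. BCL2 had 98.2 FPKM with the RBM39 antibody and 19.2 FPKM with IgG, a log2 ratio of 2.30 with 1 added to each value, above 96.3% of the 10966 genes that reached 1 FPKM in at least 1 of the 2 arms. The other members past 2-fold higher were PMAIP1 (15.6 and 5.91 FPKM, 1.27), BAK1 (13.9 and 5.52 FPKM, 1.19) and BCL2L1 (264.7 and 127.5 FPKM, 1.05). BAX was the only member past 2-fold lower, at 15.2 and 50.02 FPKM (-1.66), below all but 13.1% of genes. So 4 of 9 measured members were past 2-fold higher and 1 lower, where 22.7% and 23.9% of genes were; the middle of the distribution was wide, with quartiles of -0.95 and 0.90.

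MCL1 was at 124 and 66.6 FPKM (0.89), and at 1.02 when the columns were scaled to a common median. BID was at 87.7 and 55.7 FPKM (0.65), BCL2L11 at 58.3 and 108.5 FPKM (-0.88) and BBC3 at 7.74 and 13.1 FPKM (-0.69). BIK was listed at 0 in both arms. The survival genes thus had ratios of 0.89 to 2.30, and the BH3-only genes -0.88 to 1.27. RBM39 RNA was lower with its own antibody, at 62.1 against 126.5 FPKM (-1.01).

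**Figure D4:**
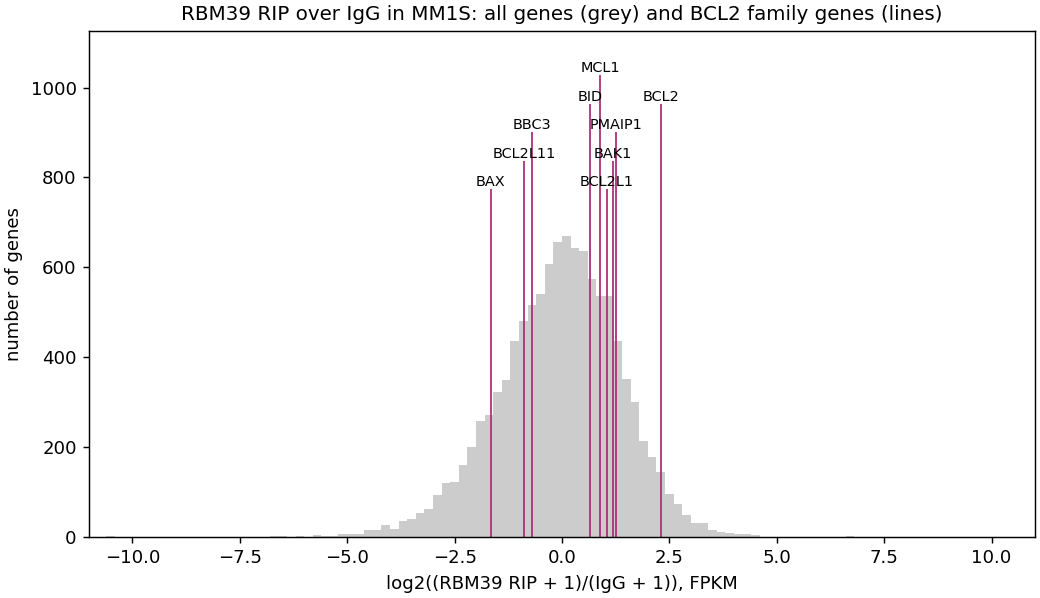
Distribution of the log2 ratio of RBM39 RIP to IgG, with 1 added to each FPKM value, over 10966 genes (grey, number of genes per bin) and the 9 measured members (lines, whose heights only separate the names). BCL2 lies at 2.30 in the upper tail and BAX at -1.66 on the lower side.

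Around the members, 7 lists of genes of the same pathway were read from the same fits. Their counts stand against 24.1% of all genes called higher and 48.1% lower in H929, against 3.97% and 6.35% for the knockdown in MM1S, and against 8.47% and 21.5% for indisulam. With no filter on low values limma called no gene at all in the MM1S knockdown (4966 at an unadjusted p below 0.05). No knockdown call in these lists therefore held under that setting. Of the other BCL2 relatives, H929 had 2 of 8 tested higher (BNIP3 at 0.90 and BNIP3L at 0.99, mitophagy receptors) and 2 lower (BMF at -0.29, BCL2L12 at -0.13). None of 7 was called by limma in the MM1S knockdown, where 2 had an unadjusted p below 0.05. With indisulam BMF, a BH3-only gene, rose from 19.8 to 40.3 TPM (0.95, adjusted p = 0.0127). BCL2L12 (-1.22), BNIP3L (-0.997) and BAD (-0.73), the BH3-only target of survival kinases, fell. BMF and BCL2L13 were past 2-fold higher in the RIP (2.01 and 1.20), and BAD, BCL2A1 and BCL2L12 lower (-2.08, -1.92 and -1.70), of 6 relatives measured and against 22.7% and 23.9% of all genes. BCL2A1 was near the floor, at 0 FPKM with RBM39 and 2.775 FPKM with IgG, so its ratio depends on the 1 added to each value.

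Downstream, of 13 apoptosome and caspase genes 2 were higher and 6 lower in H929, a share near that of all genes, among them APAF1, the scaffold of the apoptosome (-0.68). None passed in limma in the MM1S knockdown (5 at an unadjusted p below 0.05), and with indisulam 3 fell: CASP6 (-1.28), CYCS, which encodes cytochrome c (-0.55), and HTRA2 (-0.55). Among the inhibitors of apoptosis, BIRC5 (survivin) was the only one called in the MM1S knockdown, where it fell from 78.1 to 24.2 TPM (-1.65, adjusted p = 0.0116), and with indisulam, from 53.7 to 16.6 TPM (-1.64, adjusted p = 1.97e-04). In H929, 4 of 5 were lower, BIRC3 by the most (-1.66).

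In the death receptor pathway FAS was higher in both MM1S comparisons, from 23.3 to 60.8 TPM with shRBM39 (1.38, adjusted p = 0.0309) and from 2.22 to 5 TPM with indisulam (0.86, adjusted p = 0.0447). CASP10 fell in the MM1S knockdown (-0.80). With indisulam the receptor TNFRSF10B (1.66) and the caspase-8 inhibitor CFLAR (0.97) rose, while the adaptor FADD (-0.90) and TNFRSF1A (-0.63) fell. In H929, 4 of 10 were higher and 6 lower, with TNFRSF10B at -1.80 and CASP10 at 0.94.

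Of the genes that turn over MCL1 protein, CDC20 fell in the MM1S knockdown (-2.09) and with indisulam (-1.03). FBXW7, a ligase subunit that marks MCL1, rose with indisulam (1.33) and was lower in H929 (-0.88), where 7 of 9 were lower and CDC20 was higher (0.64). Of the transcription factors that induce BH3-only genes, 8 of 9 were lower in H929, DDIT3, the stress factor CHOP, by the most (-1.14). None of 10 passed in limma in the MM1S knockdown (4 at an unadjusted p below 0.05); with indisulam DDIT3 rose from 39.0 to 81.0 TPM (1.03, adjusted p = 0.00721), and E2F1 (-2.14), TP73 (-1.47) and MYC (-0.72) fell. Among 9 mitochondrial membrane partners, MTCH2, a receptor for truncated BID, fell in the MM1S knockdown (-0.63) and with indisulam (-1.36). VDAC3 (-0.82), PRELID1 (-0.72) and VDAC1 (-0.43) also fell with indisulam, and MFN1 rose (1.44); H929 had 2 higher and 3 lower.

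Without indisulam replicate 3 the 24 list genes called with all libraries kept their call and direction, 24 of 24. How many of all called genes kept theirs was not counted. More list genes were called without it, and so were genes in general: 9350 in place of 4024, 37.9% of those tested higher and 27.8% lower. Death receptor genes called higher went from 3 to 6, MCL1 turnover genes from 1 to 4, BH3-only inducers from 1 to 4, membrane partners from 1 to 5, inhibitors of apoptosis from 0 to 3 and caspase genes from 0 to 2. Genes called lower went from 3 to 5 for caspases and from 1 to 2 for the inhibitors, and the other counts were the same. The list genes were not looked at in the fits that left out another library. In some of those fits BCL2, BCL2L11, BID and PMAIP1 lost their calls, so whether the list calls hold there is unknown.

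Genes with the pattern most like 3 members were found by the root mean square distance over 16 libraries, each on the log2 scale minus the mean of its own controls, among 6465 genes. Nearest to MCL1 were BTBD1 (0.0788), YTHDF3 (0.0823) and IFRD1 (0.0864). Nearest to BCL2L11 were AREL1 (0.255), SMAD3 (0.258) and MAP4K3 (0.259). Nearest to BBC3 were TEC (0.445), APOBEC3H (0.45) and HELZ2 (0.465). The distance grows with the size of a gene's own differences, so distances cannot be compared between these members.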

How the data were processed

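RNA-seq values of 16 libraries and RIP values of 2 were used as deposited. Per the labels, TRIzol RNA went into SMARTER mRNA libraries. Of the aligner, the counter and the annotation, each is not given in the sources used here. Mouse builds (GRCm38, mm10) stand in the submitters' processing notes, while cells and symbols are human; no coordinates were taken from the files. The H929 and RIP values are FPKM made by the authors, whose columns sum to different totals (374511 to 428099 and 481945 to 653239). The 2 MM1S tables carry FPKM in their names, but hold TPM as deposited: columns sum to between 999999 and 1000001. The test planned for FPKM was run on the TPM. Rows with no gene name held 0.174% to 0.459% of TPM and stayed out.

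Each comparison was fitted on its own table with limma 3.58.1 (R 4.3.3, trend and robust), two-sided, on log2(value + 1), for genes that reached 1 in a number of libraries equal to the smaller group, with Benjamini-Hochberg adjustment over all genes. Differences are on that scale, which understates changes of low genes. Replicate numbers were not used as pairs: deviations of same-numbered libraries correlated at 0.129, -0.000441 and 0.0253 in H929, -0.142 for the MM1S knockdown, and 0.137, -0.148 and -0.0255 for indisulam. The code was tested on simulated data. Members, lists and tests were chosen with earlier results of these data known. All 10 members are named, with RBM39, list genes by adjusted p (at most 5 per list and direction, of which those with the clearest roles are printed) and the 3 nearest genes. Alternatives were another pseudocount (0.1), another filter (none, or 5), median scaling, quantile normalization, a replicate block, limma with neither trend nor robust, and each library left out. Other tools were Python 3.11.15, NumPy 2.4.6 and pandas 2.3.3.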

Additional observations from a re-analysis of the deposited data

Results flagged for a closer look

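For 4 members every library moved one way in one comparison and the other way in another. Such opposite, non-overlapping moves were common: 33.6% of 9509 genes had them between H929 and the MM1S knockdown (3 members), 20.1% of 9358 between H929 and indisulam (3 members), and 6.91% of 12595 between the MM1S comparisons (1 member). BBC3 was at 1.65 in the MM1S knockdown and 1.01 with indisulam on the log2 scale, and at -2.0 in H929 as labelled. BCL2L11 was at 0.95 with indisulam and -1.69 in H929. BCL2 was at 0.73 in the MM1S knockdown and 1.21 with indisulam, and at -0.12 in H929, a difference that did not pass the test there. BAX was at 0.56 in the MM1S knockdown, -0.51 in H929 and -0.26 with indisulam, the last not passing the test. The tables were normalized separately, and the difference between comparisons was not tested. In H929 the RBM39 level goes against the labels, so its directions are those of the labels only.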

How the results depend on the processing

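No called member changed direction under any alternative. In H929, the count of members called lower (9) was 6 under median scaling, 8 under quantile normalization (BID lost) or a filter at 5, 10 with all columns scaled to the same sum (chosen after seeing the data; BCL2 at -0.28, adjusted p = 0.0189) and 9 under the replicate block. In the MM1S knockdown, the count called higher (2) was 0 with no filter, 1 with limma without trend and robust, 1 under the replicate block (BAX lost, adjusted p = 0.109), and 0 without any 1 library, although limma gave 2 to 4 members higher there at an unadjusted p below 0.05. Over all genes the 1461 calls became 0 with no filter (4966 at an unadjusted p below 0.05), 255 under the replicate block, and 0 to 465 without 1 library. Deviations of same-numbered knockdown libraries had a weak negative correlation (-0.142), so the numbers were also crossed, after seeing the data. In limma this gave 1 member higher (BBC3, as BAX had an adjusted p of 0.0685) and 772 genes. With indisulam, the count called lower (2) was 1 with no filter (PMAIP1 lost, adjusted p = 0.104), 1 with a filter at 5, 1 under quantile normalization, 1 under median scaling (BID lost in both) and 1 under the replicate block (PMAIP1 lost, adjusted p = 0.0733). The count called higher (3) was 2 with no filter (BCL2L11 lost, adjusted p = 0.0605) and 4 under quantile normalization and median scaling (MCL1 added). Leaving out 1 library gave 1 to 4 higher, 0 to 4 lower and 1849 to 9350 genes. In these fits the cause was not tested, except that a filter at 5 drops members from the test. It drops PMAIP1 and BIK with indisulam, PMAIP1 and BCL2 in H929, and BIK in the MM1S knockdown. With RIP, median scaling put MCL1 past 2-fold, for 5 members. Depth is unknown for MM1S and RIP, and levels near 1, as of BIK, are limited by it most.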
